A study of Mus musculus with 20 samples.

Results

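Livers of male Fancd2 mutant mice given oxymetholone alone were compared with livers of male Fancd2 mutant mice given oxymetholone and metformin together. All mice of both groups carried the genotype d2-/- and received oxymetholone, and metformin was the only labelled difference between them. Tissue was collected after 18 months of treatment. The comparison used 8 of the 18 libraries with counts, chosen by their treatment labels: 3 from mutants given both drugs (met+oxm) and 5 from mutants given oxymetholone (oxm). All 18 libraries entered the estimate of the spread, also for this comparison. Where the response to metformin without oxymetholone was needed, 3 libraries of mutants given metformin (met) and 3 of untreated mutants were used. The 4 untreated wild-type libraries entered only the estimate of the spread. The labels give no age at the start, no strain, no dose and no route, and nothing in them says that each library came from a separate animal, so p-values measure the spread between these samples. Counts of Fancd2 were not analysed here, which leaves the genotype as the labels give it.

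Fancd2 is part of the Fanconi anaemia machinery that removes crosslinks between DNA strands, and its loss leads to failure of the blood-forming bone marrow. Oxymetholone is a synthetic androgen used to raise blood counts in bone marrow failure, and it is broken down in the liver, where androgens have known effects on metabolism. Metformin is a diabetes drug taken up by hepatocytes. It is known to inhibit respiratory complex I, to activate the kinase AMPK and to lower glucose production, and active AMPK is known to restrain the synthesis of fatty acids and cholesterol. The comparison therefore asks what metformin adds in a liver already exposed to an androgen.

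Total counts were 21.8 to 32.7 M per library with oxymetholone and 20.2 to 32.4 M with both drugs. Y-linked transcripts exceeded Xist in 18 of 18 libraries, as male labels require. The third library of the combination (replicate 3) stood apart: its median correlation with the other 7 libraries was 0.918, against 0.944 to 0.961 for the others, and its scaling factor was 1.31. List results below are therefore given with it and without it. Among the metformin libraries, replicate 3 likewise had a low median correlation with all other libraries (0.926), and metformin-alone values of lists are given with and without that library. Levels are given as CPM, read counts relative to the scaled total of the library, a log2 difference is both drugs minus oxymetholone with its standard error (SE), and n is 5 with oxymetholone and 3 with both drugs throughout.

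No gene passed the test for metformin added to oxymetholone. Of 16115 genes, the quasi-likelihood test of edgeR, adjusted by Benjamini-Hochberg, called 0 (0%) at an adjusted p of 0.05, and the smallest adjusted p was 0.885. At an unadjusted p of 0.05, 461 genes (2.86%) were counted, 295 higher (1.83%) and 166 lower (1.03%) with both drugs. DESeq2 called 1 gene of 16035 (0.00624%), Acmsd, with 587 (3.66%) at an unadjusted p of 0.05. Limma-voom called 0, with 560 (3.48%) at that level. The authors' deposited table called 0 as well, with 828 (5.14%) at an unadjusted p of 0.05 and a smallest adjusted p of 0.432. The log2 difference was above 0 in 8392 genes (52.1%) and its median was 0.02. Without combination replicate 3, edgeR again called 0, 184 genes were higher and 184 lower at an unadjusted p of 0.05 (1.14% each), 44.2% of differences were above 0 and the median was -0.05. The median SE was 0.38 on the log2 scale. In what follows, "higher" and "lower" describe values and no gene is called changed by edgeR.

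The gene with the smallest p was Acmsd, whose enzyme diverts an intermediate of tryptophan breakdown away from the synthesis of NAD. Acmsd stood at 78.5, 42.7, 91.5, 94.1 and 58.6 CPM with oxymetholone and at 11.9, 20.1 and 28.5 CPM with both drugs. Every combination library lay below every oxymetholone library. The means were 73.1 ± 22.1 and 20.2 ± 8.30 CPM (SD), a log2 difference of -1.85 ± 0.37 (SE; edgeR adjusted p = 0.885, DESeq2 adjusted p = 0.0045, limma-voom adjusted p = 0.308). The difference was -2.19 without combination replicate 3, and it ranged from -2.19 to -1.58 when each of the 8 libraries was left out in turn. The authors' deposited table gives -1.85 for the same gene. Metformin without oxymetholone gave Acmsd a log2 difference of -0.35 ± 0.38 from untreated mutants, and the difference between both metformin differences was -1.50 ± 0.52 (edgeR adjusted p = 0.863). Without metformin replicate 3 these were -0.38 ± 0.44 and -1.47 ± 0.56.

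Acmsd belongs to the pathway from tryptophan through kynurenine to NAD, and 19 genes of that pathway were read together in a list chosen after values were seen. Of these, 6 were higher and 13 lower, with a median of -0.27, and 11 were higher without combination replicate 3. Acmsd itself prompted the list, and of the other 18 genes 12 were lower with a median of -0.24, or 7 with a median of 0.12 without that library. Kynu, which encodes kynureninase, stood at 175 to 266 CPM with oxymetholone (median 244) and at 192, 132 and 96.2 CPM with both drugs, and the groups overlapped. Nampt, which encodes the rate-limiting enzyme of NAD salvage, was at 51.1, 98.2, 34.6, 91.2 and 133 CPM with oxymetholone and at 109, 198 and 138 CPM with both drugs (log2 difference 0.86 ± 0.39). Only 1 of the 5 oxymetholone libraries exceeded the lowest combination value. Tdo2, whose product starts the pathway, gave a log2 difference of -0.27 ± 0.39.

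The groups did not overlap for 183 genes in all (1.14%), 123 higher (0.763%) and 60 lower (0.372%) with both drugs, and the difference exceeded 1 log2 unit in 37 of the higher and 26 of the lower genes. With the 2 remaining combination libraries alone, 3.27% of genes were higher and 2.5% lower without overlap. In both cases, labels assigned at random would on average leave a larger share of genes without overlap. Lack of overlap alone therefore marks no gene as changed. The named ones were the 12 in each direction with the smallest p among genes with a mean log2 CPM of at least 0. All were uncalled, and since they were ranked on this contrast their differences are descriptions.

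The higher genes included Cyp2c39, Rdh9 and Vnn1. Cyp2c39, a cytochrome P450 of the Cyp2c family, stood at 36.6, 35.6, 29.6, 36.7 and 63.4 CPM with oxymetholone and at 126, 88.0 and 115 CPM with both drugs. All 3 combination libraries were above the highest oxymetholone library, itself apart from the other 4, and the log2 difference was 1.44 ± 0.33 (2.71-fold; 1.41 without combination replicate 3). Rdh9, of a family of retinol and steroid dehydrogenases, was at 2.92, 2.89, 0.809, 1.62 and 3.20 CPM with oxymetholone and at 8.07, 5.81 and 12.6 CPM with both drugs (log2 difference 1.94 ± 0.44). Vnn1, which encodes a pantetheinase and is a known target of the fatty acid receptor PPAR-alpha, was at 8.25, 19.5, 9.14, 11.2 and 14.1 CPM with oxymetholone and at 27.1, 40.7 and 22.3 CPM with both drugs (1.27 ± 0.37). For Rdh9 and Vnn1, too, no oxymetholone library reached the combination libraries. Lipa, the lysosomal acid lipase that frees cholesterol and fatty acids from stored esters, showed a smaller gap: 163 to 192 CPM (median 167) against 266, 212 and 228 CPM (0.46 ± 0.16). Sgms1, a sphingomyelin synthase, was at 9.62 to 18.0 CPM against 18.3, 21.5 and 23.8 CPM (0.66 ± 0.24), so that its groups were separated by a narrow margin. The other higher genes of the rule were Rasa2, Tmem62, Tdrp, Mapkapk3, Nepro, Myh7 and Tmem123, with log2 differences from 0.53 to 1.42. Mapkapk3 had 9.01 CPM in combination replicate 3 against 2.28 and 2.14 CPM in the other 2, and its difference was 0.39 without that library.

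**Figure D1:**
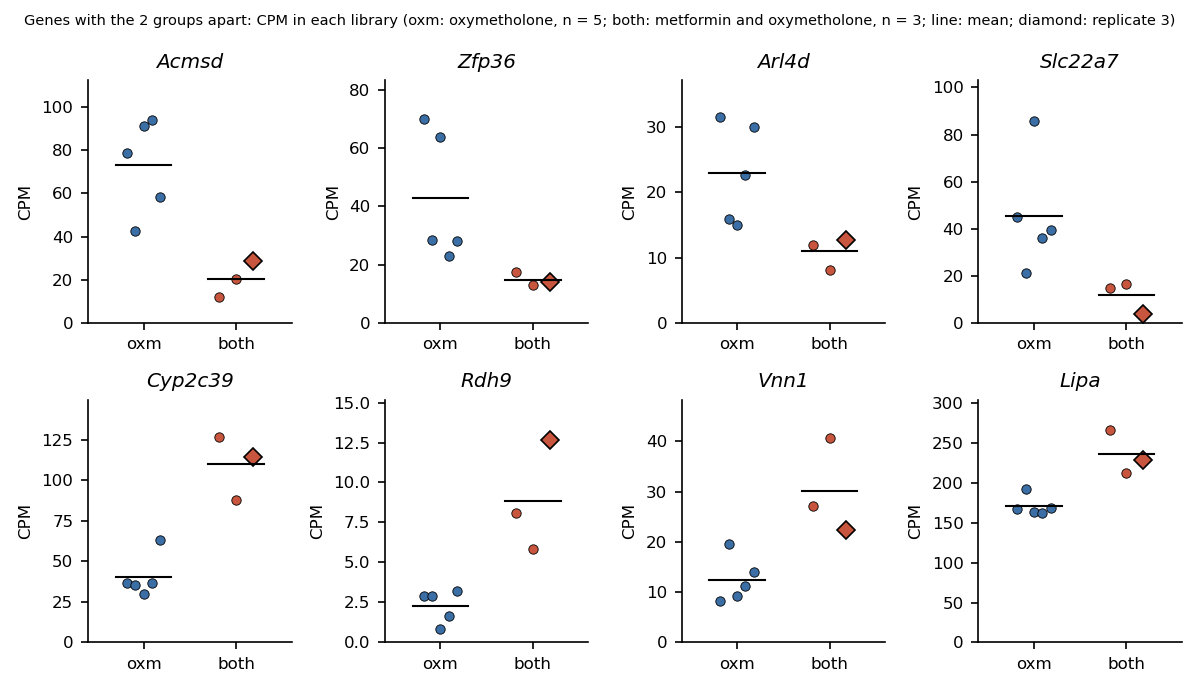
CPM of 8 genes in each library (vertical axes, linear from 0), for the 5 oxymetholone libraries (oxm) and the 3 libraries with both drugs (both); lines are group means and the diamond is combination replicate 3. In each panel the 2 groups do not overlap, as in Acmsd, where the combination lies at 11.9 to 28.5 CPM and oxymetholone at 42.7 to 94.1 CPM.

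Among the lower genes, after Acmsd, was Zfp36, an early-response gene whose protein (tristetraprolin) speeds the decay of mRNAs. Zfp36 was at 70.0, 28.6, 63.8, 22.8 and 28.2 CPM with oxymetholone and at 17.3, 13.2 and 14.1 CPM with both drugs. The 3 combination libraries were close to each other and below all oxymetholone libraries, with a log2 difference of -1.52 ± 0.36 (-1.49 without combination replicate 3). Slc22a7, an organic anion transporter of hepatocytes, was at 44.98, 21.0, 85.6, 35.9 and 39.4 CPM with oxymetholone and at 15.0, 16.7 and 3.95 CPM with both drugs (-1.94 ± 0.70). The closest libraries of its groups were the second of each. Arl4d, a small GTP-binding protein, was at 31.5, 15.9, 15.0, 22.7 and 30.0 CPM against 11.99, 8.16 and 12.7 CPM (-1.07 ± 0.33). Lag3, a checkpoint receptor of T cells, was at 5.93 to 10.8 CPM against 2.92, 5.45 and 2.54 CPM (-1.21 ± 0.42). Markers of T and NK cells were higher in 12 of 15 genes with all libraries and in 0 of 15 without combination replicate 3, and their part in the value of Lag3 was not tested. The remaining lower genes were Colgalt2, Rgs12, Cables1, Clip4, Paqr8, Tbc1d10a and Ehd1, with log2 differences from -2.17 to -0.49.

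Zfp36 and Arl4d led to a closer look at immediate-early genes, which respond to stimuli within minutes. This list of 26 tested genes was chosen after values were seen. With both drugs 7 were higher and 19 lower, with a median of -0.57 (all genes 0.02), and 7 were lower at an unadjusted p of 0.05 (1.03% of all genes). Without combination replicate 3, 25 of 26 were lower, with a median of -0.82 (all genes -0.05). Other lists fell as far without that library, such as proliferation (median -1.10) and interferon response (-0.90). By library, the mean log2 CPM of the 26 immediate-early genes was 3.22, 3.40, 2.57, 3.07 and 3.35 with oxymetholone. It was 2.52, 2.26 and 3.25 with both drugs, so combination replicate 3 lay inside the oxymetholone range. Zfp36 and Arl4d prompted the list and are counted in it. Of the other 24 genes 17 were lower with a median of -0.48, 5 of them at an unadjusted p of 0.05, and 23 were lower with a median of -0.78 without combination replicate 3. Nab2, a corepressor of EGR factors, was at 10.8, 8.49, 13.2, 9.98 and 5.39 CPM against 5.10, 5.61 and 4.66 CPM, and 1 of the 3 combination libraries reached into the oxymetholone range. Junb, a subunit of AP-1, was at 58.8, 44.1, 33.8, 35.0 and 19.99 CPM against 20.9, 16.2 and 30.2 CPM. Fos, another AP-1 subunit, stood at 24.5 and 12.2 CPM in the first 2 oxymetholone libraries, at 0.190, 0.974 and 0.975 CPM in the other 3 and at 0.545, 0.663 and 2.77 CPM with both drugs. Dusp1, a phosphatase of MAP kinases, had the same 2 oxymetholone libraries high, 63.8 and 45.2 CPM against 9.74 to 13.9 CPM in the other 3, and 8.22, 9.99 and 16.2 CPM with both drugs. For Fos and Dusp1 the group difference thus rested on 2 oxymetholone libraries. Zfp36 also had 2 high oxymetholone libraries (70.0 and 63.8 CPM), which enlarged its difference. Its other 3, at 22.8 to 28.6 CPM, still lay above all combination libraries. With metformin alone the immediate-early list had 19 of 26 genes higher and a median of 0.47, or 15 of 26 and 0.21 without metformin replicate 3.

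All 25 genes of the cholesterol list had lower means with both drugs. The list, made of SREBP-2 targets (SREBP-2 is the transcription factor that switches on cholesterol synthesis when sterols are low), had 0 genes higher and 25 lower against 47.9% lower over all genes, and its median was -0.58 against 0.02. None was called by edgeR and 5 were lower at an unadjusted p of 0.05 (1.03% of all genes). Without combination replicate 3 all 25 were still lower, with a median of -0.72 against -0.05 over all genes. Members of such a list move together between livers, so that 25 genes in 1 direction are not 25 independent observations.

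By library, the mean log2 CPM of the 25 genes was 7.06, 5.83, 7.29, 7.21 and 5.94 with oxymetholone and 6.41, 5.80 and 6.42 with both drugs. Oxymetholone replicates 1, 3 and 4 formed a high set, while replicates 2 and 5 lay between the lowest and the highest combination library, so the groups overlapped. Dhcr7, which encodes the last enzyme of the route, showed this pattern at 123, 55.0, 190, 141 and 63.3 CPM with oxymetholone and at 58.5, 40.8 and 69.1 CPM with both drugs (-1.03 ± 0.41). Mvk, mevalonate kinase, was at 58.6, 26.6, 96.4, 64.4 and 31.1 CPM against 40.7, 20.7 and 34.9 CPM (-0.79 ± 0.36). Msmo1, a sterol oxidase of the route, was at 717, 266, 530, 601 and 245 CPM against 339, 219 and 273 CPM (-0.77 ± 0.35). In all 3 genes every combination library lay below oxymetholone replicates 1, 3 and 4. Hmgcs1, which makes the precursor of mevalonate, was at 437, 144, 377, 472 and 116 CPM against 226, 64.4 and 262 CPM (-0.75 ± 0.54). Metformin alone gave the list a median of -0.68 against untreated mutants, with 2 of 25 genes higher, where 53.9% of all genes were higher. Without metformin replicate 3 the list had 0 of 25 genes higher and a median of -1.07.

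**Figure D2:**
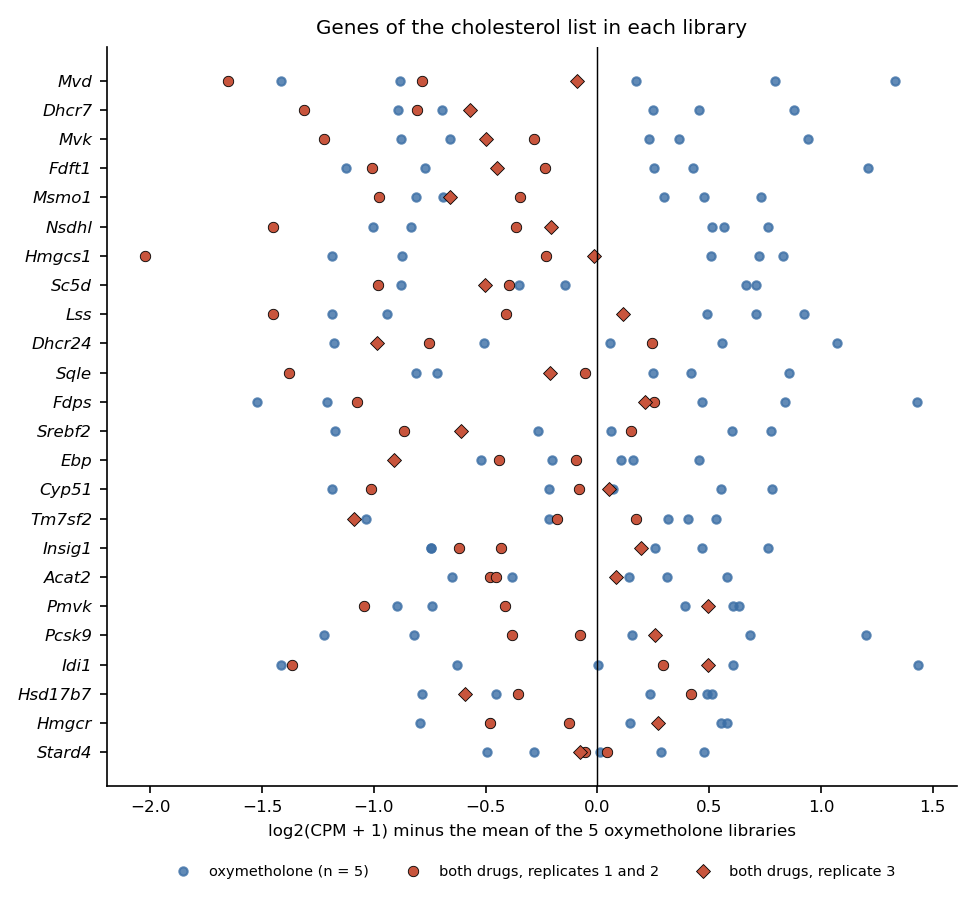
Log2(CPM + 1) of genes of the cholesterol list in each of 8 libraries, minus the mean of the 5 oxymetholone libraries (horizontal axis, 0 is that mean); genes are ordered by their log2 difference, oxymetholone libraries are blue, combination libraries red and combination replicate 3 a diamond. Most red points lie left of 0, among the lower blue points, and the blue points of most genes fall into a low pair and a high set.

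Because these genes lay on 1 side together, their promoters were read for shared letters. SREBP factors are known to act with the CCAAT-binding factor NF-Y, and sterol regulatory elements are the sites SREBP binds. Only 17 of the 25 list members were found among the promoter sequences (RefSeq, GRCm38.p6). In the 250 bases before the start of each gene, searched on both strands, CCAAT was present in 16 of these 17 (94.1%), Acat2 being the exception. It was present in 37.5% of all 27025 genes with a promoter sequence, which were not limited to the 16115 genes tested. A sterol regulatory element spelled TCACNCCAC was present in 1 of 17 (Hmgcs1; 5.88%) and in 1.22% of genes. The letters of the motifs do not overlap each other in the sequences shown. These are matches of letters and do not show that a factor was bound. The list was made of SREBP-2 targets, so the matches carry no information on metformin. The promoters of Mvk, Msmo1 and Hmgcs1 are shown because their CPM values are given above and they hold several matches: Mvk has 5 CCAAT matches, Msmo1 has 3, and Hmgcs1 has 3 and the 1 sterol regulatory element. Each is written 5′ to 3′ along the gene, and capitals mark CCAAT, its reverse complement ATTGG and, in Hmgcs1, the sterol regulatory element. Mvk lies at chr5:114444019-114444268 on the + strand, Msmo1 at chr8:64733579-64733828 on the - strand and Hmgcs1 at chr13:119690101-119690350 on the + strand.
Mvk: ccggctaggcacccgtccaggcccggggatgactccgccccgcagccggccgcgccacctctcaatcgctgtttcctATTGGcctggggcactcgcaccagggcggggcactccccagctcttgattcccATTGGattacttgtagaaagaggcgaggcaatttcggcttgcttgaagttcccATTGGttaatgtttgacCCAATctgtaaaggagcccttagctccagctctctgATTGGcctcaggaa
Msmo1: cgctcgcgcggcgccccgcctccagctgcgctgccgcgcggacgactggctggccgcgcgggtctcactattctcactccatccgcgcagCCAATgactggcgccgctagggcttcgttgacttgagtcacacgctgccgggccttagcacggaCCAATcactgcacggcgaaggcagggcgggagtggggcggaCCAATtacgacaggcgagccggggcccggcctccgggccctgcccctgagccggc
Hmgcs1: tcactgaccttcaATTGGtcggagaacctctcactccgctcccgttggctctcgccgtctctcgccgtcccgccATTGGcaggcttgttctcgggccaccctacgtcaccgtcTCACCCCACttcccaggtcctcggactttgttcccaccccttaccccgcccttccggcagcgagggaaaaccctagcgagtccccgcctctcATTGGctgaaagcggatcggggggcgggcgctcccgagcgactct

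Fatty acid synthesis leaned the same way more weakly, with 15 of 21 genes lower and a median of -0.28 (14 lower and -0.32 without combination replicate 3). Srebf1, the gene of the fat-synthesis regulator SREBP-1, was at 84.2, 58.0, 229, 163 and 227 CPM against 63.8, 102 and 56.8 CPM (-1.04 ± 0.46). Fasn, fatty acid synthase, was at 62.8, 72.5, 295, 87.1 and 111 CPM against 41.5, 59.7 and 101 CPM (-0.90 ± 0.53). The groups overlapped for both genes, and Fasn had its highest value in oxymetholone replicate 3, without which its difference was -0.32.

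Genes of fatty acid oxidation under PPAR-alpha lay on the higher side in the group difference, but not in every combination library. Of 26 genes 20 were higher, with a median of 0.23, and without combination replicate 3 they were 25 of 26, with a median of 0.46. At an unadjusted p of 0.05, 2 were higher in the first case (1.83% of all genes) and 5 in the second (1.14% of all genes). By library, the mean log2 CPM of the 26 genes was 5.78, 6.34, 5.87, 5.65 and 6.60 with oxymetholone. It was 6.73, 6.82 and 5.52 with both drugs, so combination replicate 3 lay below all other libraries. Cyp4a10, a fatty acid hydroxylase, was at 14.3, 38.9, 15.8, 13.8 and 52.9 CPM with oxymetholone and at 165, 110 and 28.8 CPM with both drugs (1.90 ± 0.82). The first and second combination libraries exceeded all oxymetholone libraries and the third did not. Slc25a20, which carries acylcarnitines into mitochondria, followed the same order at 147, 201, 85.1, 152 and 180 CPM against 241, 238 and 137 CPM (0.43 ± 0.29; 0.65 without combination replicate 3). A separate list of lipid droplet genes had 7 of 12 higher, with a median of 0.14. Without combination replicate 3 it had 9 of 12 higher and a median of 0.24. Cidec, the lipid droplet gene with the smallest p, was at 2.15 to 6.61 CPM (median 3.60) against 9.61, 6.58 and 6.70 CPM (0.94 ± 0.36). The highest oxymetholone library lay just above the lowest combination library there. With metformin alone the oxidation list had 21 of 26 genes higher and a median of 0.19, or 21 of 26 and 0.22 without metformin replicate 3.

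Targets of the drug-sensing receptors PXR and CAR had 21 of 27 genes higher and a median of 0.66, and 18 of 27 with a median of 0.42 without combination replicate 3. By library its mean log2 CPM was 5.22, 5.83, 4.88, 5.08 and 6.17 with oxymetholone and 5.76, 5.82 and 5.76 with both drugs. The combination values all lay inside the oxymetholone range. Cyp2c39 was the member with the smallest p. The Cyp2c family, a list chosen after values were seen that shares members with this one, had 11 of 13 genes higher with combination replicate 3 (median 0.83) and 11 of 13 without it (median 0.86). Cyp2c39 prompted that list, and of the other 12 genes 10 were higher in both cases (medians 0.79 and 0.83). By library, the mean log2 CPM of the 13 genes was 5.54, 5.11, 4.90, 4.20 and 5.07 with oxymetholone. It was 5.52, 6.14 and 4.78 with both drugs, so the groups overlapped. The summed CPM of the family was lowest in combination replicate 3, at 1631 CPM. Cyp2c38 was at 6.85, 7.82, 5.52, 5.07 and 28.8 CPM against 15.9, 29.9 and 16.7 CPM, so 4 of 5 oxymetholone libraries lay below the combination. Cyp2c68 was at 132, 52.0, 39.3, 41.2 and 29.2 CPM against 82.2, 132 and 130 CPM, where the first oxymetholone library lay above all combination libraries and the other 4 below them. Some genes of this family are near-identical copies, and how reads shared between them were counted is not given, so the values of single members are uncertain. Cyp3a16 stood below 1 CPM in all 5 oxymetholone libraries and in 2 combination libraries and at 46.1 CPM in combination replicate 3. Metformin alone gave the PXR and CAR list 13 of 27 genes higher with a median of -0.01, or 17 of 27 with a median of 0.13 without metformin replicate 3.

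**Figure D3:**
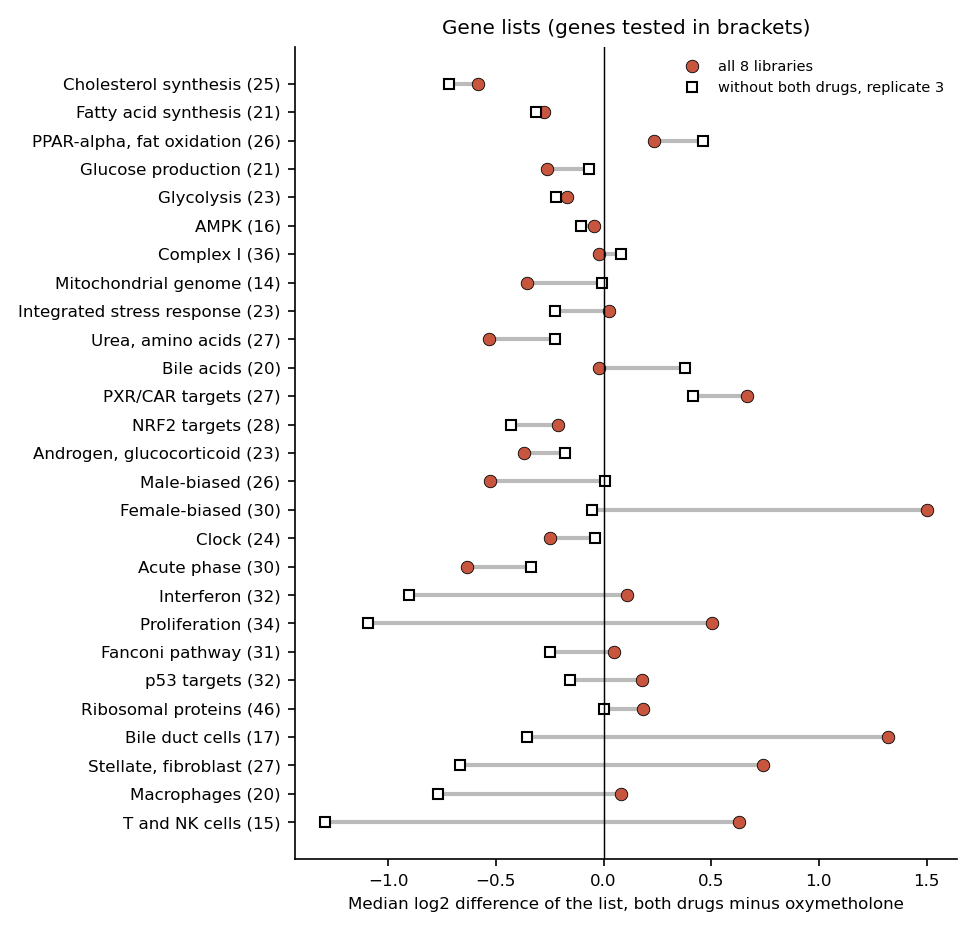
Median log2 difference, both drugs minus oxymetholone (horizontal axis), of 27 gene lists with the number of tested genes in brackets; filled circles use all 8 libraries and open squares leave out combination replicate 3. Cholesterol synthesis lies left of 0 in both (-0.58 and -0.72), while female-biased, bile duct, proliferation and T cell lists lie right of 0 with all libraries and left of it without that library.

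No gene of the processes most tied to metformin was called by edgeR. Since it called 0 of all 16115 genes, this says nothing particular about these processes. Of the 4 tested metformin transport genes 3 were higher with a median of 0.33, and 4 of 4 with a median of 0.63 without combination replicate 3. AMPK subunits and partners had 5 of 16 genes higher and a median of -0.04, or 6 of 16 and -0.11 without that library. Nuclear genes of complex I had 16 of 36 higher and a median of -0.02, and without that library the balance turned to 31 of 36 higher with a median of 0.08. The member of the AMPK list with the smallest p, Cab39, which encodes a partner of the AMPK kinase LKB1, gave 0.24 ± 0.15. Genes of glucose production had 18 of 21 lower and a median of -0.26, which was -0.07 without combination replicate 3. These are transcript levels and do not measure the activity of AMPK or of complex I.

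Amino acid breakdown and the urea cycle lay lower, with 24 of 27 genes lower and a median of -0.53, or 17 of 27 and -0.22 without combination replicate 3. Sds, serine dehydratase, was at 51.2, 17.0, 84.3, 83.2 and 61.0 CPM against 34.7, 25.6 and 10.7 CPM (-1.33 ± 0.45). Tat, tyrosine aminotransferase and a glucocorticoid target, was at 628, 207, 907, 1394 and 1056 CPM against 422, 358 and 160 CPM (-1.42 ± 0.58). Ass1, argininosuccinate synthase of the urea cycle, was at 4868, 2993, 4247, 3611 and 4160 CPM against 2142, 2828 and 1453 CPM (-0.89 ± 0.35). For Sds and Tat the second oxymetholone library lay within the combination range, and for Ass1 the groups did not overlap. The lowest value of each was in combination replicate 3. Acute-phase proteins were lower in 29 of 30 genes with a median of -0.63, and in 26 of 30 with a median of -0.34 without combination replicate 3. By library, the mean log2 CPM of the 30 genes was 8.04, 7.57, 8.72, 10.67 and 7.96 with oxymetholone. It was 9.14, 8.15 and 7.49 with both drugs. The groups overlapped, and oxymetholone replicate 4 stood far above all other libraries. Saa1, a major one, was at 60444 CPM in oxymetholone replicate 4, at 283 to 3637 CPM in the other 4 and at 2929, 952 and 116 CPM with both drugs, and its difference of -3.30 ± 1.83 turned to 0.10 without oxymetholone replicate 4. The authors' deposited table gives 0.37 for Saa1, the opposite sign.

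The cellular make-up of the samples was read from marker lists. Markers of bile duct cells were higher in 13 of 17 genes with a median of 1.32, and markers of stellate cells and fibroblasts in 25 of 27 with a median of 0.74. Both medians were negative without combination replicate 3 (-0.36 and -0.67). The bile duct markers summed to 122 to 505 CPM with oxymetholone and to 119 to 961 CPM with both drugs, the highest in combination replicate 3, with 2 of 17 markers at 0 in at least 1 library. Tspan8, a bile duct membrane protein, stood at 165 CPM in combination replicate 3 against 1.62 to 5.04 CPM in the other 7 libraries, and Epcam, an adhesion molecule of duct cells, at 16.6 CPM against 0.881 to 1.81 CPM. Acta2, the smooth muscle actin of activated stellate cells, was at 27.5 CPM there and at 0.545 to 2.81 CPM elsewhere. In that library the hepatocyte markers had a mean log2 CPM of 9.95, against 10.88 to 11.84 in the other 7, and the summed hepatocyte markers were lowest, at 46036 CPM. In bulk liver, more or fewer cells of a type and more or less RNA per cell cannot be told apart.

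Sex-biased liver genes, which follow the male and female patterns of growth hormone release, gave a second view of the same library. Female-biased genes were higher in 25 of 30 with a median of 1.50, and 11 were higher at an unadjusted p of 0.05 (1.83% of all genes). Male-biased genes were lower in 19 of 26 with a median of -0.53. Without combination replicate 3 the medians were -0.05 and 0.01. Sult3a1, a female-biased sulfotransferase, stood at 102 CPM in that library and at 0.357 to 5.34 CPM in the other 7. The mean log2 CPM of the male-biased list was 3.33 there against 5.99 to 7.96 in the other 7 libraries. Proliferation genes were higher in 27 of 34 (median 0.50), and 0 of 34 were higher without that library (median -1.10). Kif11, a motor of the mitotic spindle, was at 0.524 to 1.63 CPM with oxymetholone and at 0.991, 0.816 and 4.49 CPM with both drugs. Interferon-response genes went from the higher to the lower side in the same way, from 18 of 32 higher (median 0.11) to 0 of 32 (median -0.90). The part of cell composition in the differences of single genes was not tested. Leaving out combination replicate 3 does not even out composition. Macrophage markers were then higher in 1 of 20 genes (median -0.77) and T and NK markers in 0 of 15 (-1.29), while hepatocyte markers had a median of -0.01. Acmsd, Cyp2c39 and Zfp36 were named because their groups did not overlap, so that they kept their direction without that library was largely fixed by their choice. The cholesterol list also kept its direction, which does not separate composition from treatment.

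**Figure D4:**
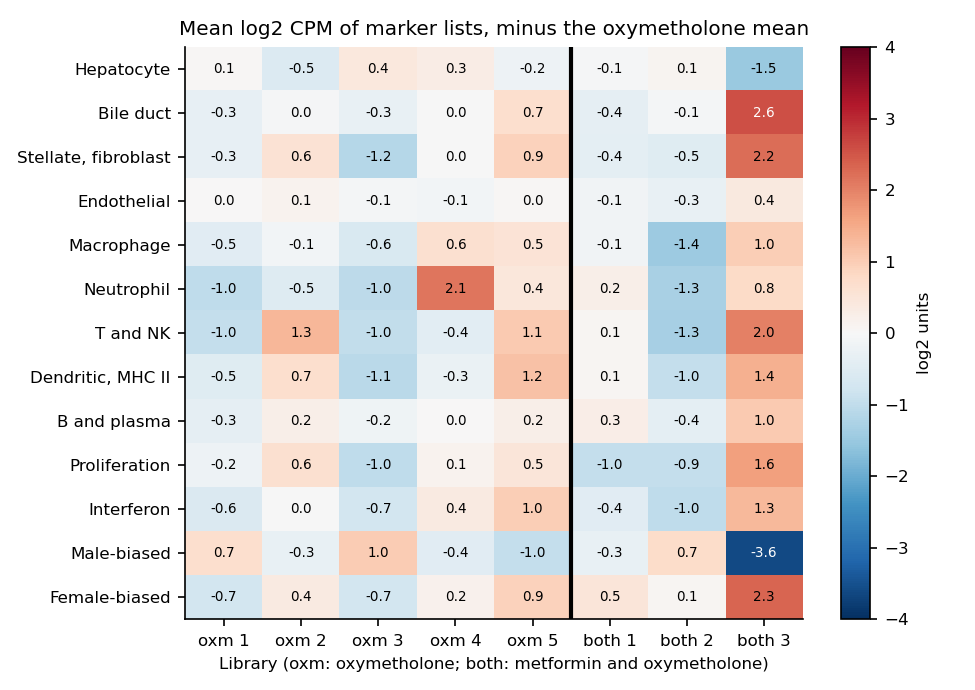
Mean log2 CPM of 13 lists in each of the 8 libraries, minus the mean of the 5 oxymetholone libraries (colour and printed value, log2 units); the vertical line separates oxymetholone from both drugs. Combination replicate 3 (last column) is high for bile duct (2.6), stellate (2.2) and female-biased genes (2.3) and low for male-biased (-3.6) and hepatocyte genes (-1.5), while combination replicates 1 and 2 stay close to the oxymetholone libraries in these lists.

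Genes that an earlier reading of these libraries called between oxymetholone and untreated mutants were followed in the combination. Their choice used the oxymetholone libraries, which are also the reference here, so values that lie nearer to untreated mutants are given with no test. Paqr8, a membrane progestin receptor, was at 1.24, 1.80 and 1.25 CPM in untreated mutants and at 17.7, 26.9, 13.4, 28.9 and 27.0 CPM with oxymetholone. It was at 10.9, 9.94 and 13.1 CPM with both drugs, below every oxymetholone library and above every untreated one. Wif1, an inhibitor of Wnt signalling, was at 0.213, 1.04 and 0.880 CPM untreated, at 41.7, 44.0, 18.0, 16.3 and 37.6 CPM with oxymetholone and at 24.4, 14.3 and 9.57 CPM with both drugs, where 1 of 3 lay within the oxymetholone range. Rab38, a small GTP-binding protein of vesicle traffic, was at 2.30 to 3.77 CPM untreated, 12.1 to 17.4 CPM with oxymetholone and 12.5, 8.97 and 9.64 CPM with both drugs. Lncbate1, a long non-coding RNA, was at 8.14 to 25.7 CPM with oxymetholone and at 21.1, 7.85 and 4.28 CPM with both drugs, and its groups overlapped. Of the genes that were lower with oxymetholone, Tmem62 was at 24.3, 20.6 and 15.8 CPM untreated, 2.14 to 4.52 CPM with oxymetholone and 5.55, 6.53 and 7.03 CPM with both drugs. Ubr1, which marks proteins for degradation by their first residue, was at 12.2, 17.0 and 18.6 CPM, 2.60 to 5.45 CPM and 5.10, 7.24 and 10.8 CPM in the same order. Mcmdc2 was at 0 CPM in 4 of 5 oxymetholone libraries and in 2 of 3 combination libraries. In the 6 expressed genes the combination mean lay between the oxymetholone and the untreated means, and in each it remained nearer to oxymetholone on the log2 scale.

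**Figure D5:**
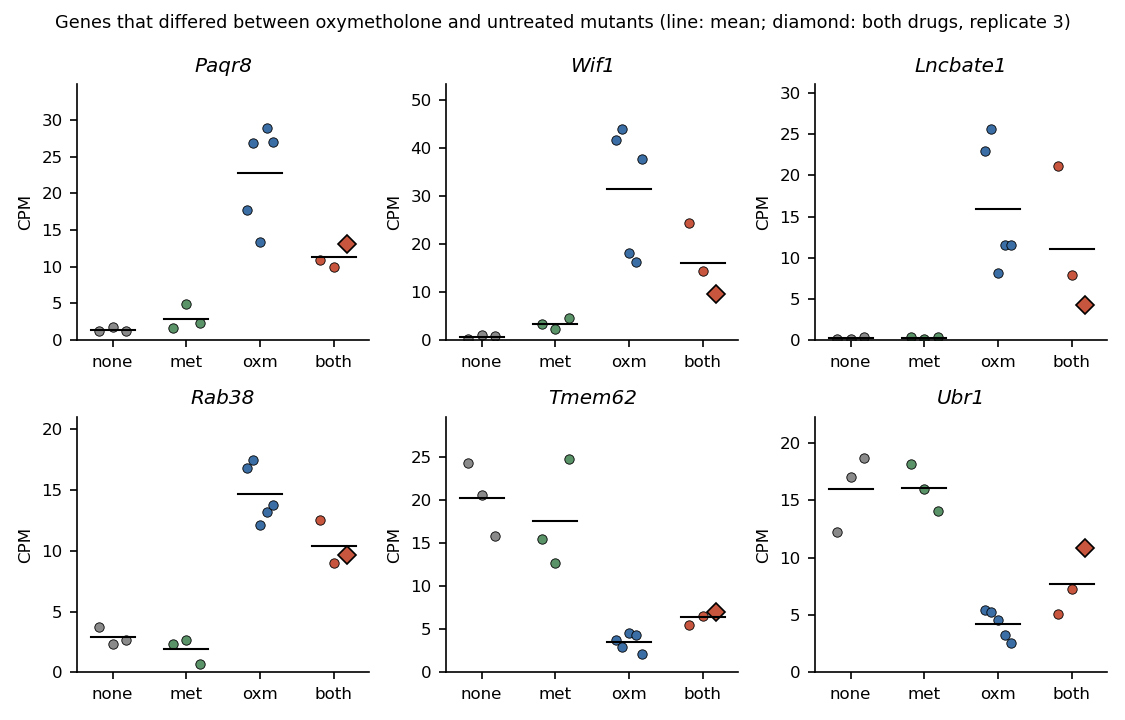
CPM (vertical axes, linear from 0) of 6 genes in untreated mutants (none, n = 3) and mutants given metformin (met, n = 3), oxymetholone (oxm, n = 5) or both drugs (both, n = 3); lines are means and the diamond is combination replicate 3. The combination lies between oxymetholone and the untreated mutants in mean, as for Paqr8 at 9.94 to 13.1 CPM against 13.4 to 28.9 CPM and 1.24 to 1.80 CPM.

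Whether metformin did something else on top of oxymetholone than on its own was tested as the difference between both metformin differences, which share no library. The quasi-likelihood test of edgeR, adjusted by Benjamini-Hochberg, found 0 genes (0%) past the threshold, 483 (3%) at an unadjusted p of 0.05 and a smallest adjusted p of 0.863. DESeq2 called 3 (0.0187%), Selenbp2, Slc22a26 and Wif1, and limma-voom and the authors' deposited table called 0 each. Selenbp2, a male-biased selenium-binding protein, was at 8.49, 13.2 and 5.61 CPM in untreated mutants and 36.3, 283 and 88.1 CPM with metformin. It was at 121, 85.7, 468, 16.4 and 71.0 CPM with oxymetholone and 15.0, 37.6 and 13.3 CPM with both drugs. The log2 differences for metformin were 3.90 ± 1.11 alone and -2.80 ± 1.001 on top of oxymetholone, and their difference was -6.70 ± 1.49 (edgeR adjusted p = 0.863, DESeq2 adjusted p = 0.00096). The highest metformin value came from replicate 3, without which the difference of differences was -5.58 ± 1.42. The highest oxymetholone value, 468 CPM, came from oxymetholone replicate 3. On top of oxymetholone the log2 difference ranged from -3.43 to -1.77 when each of the 8 libraries was left out in turn. Slc22a26, an organic anion transporter gene of the female-biased list, went the other way. It was at 5.22, 4.37 and 14.0 CPM untreated and 0.842, 0.429 and 0.666 CPM with metformin. With oxymetholone it was at 0.0401 to 1.05 CPM, and with both drugs at 1.14, 0.816 and 4.91 CPM. Its groups overlapped with oxymetholone and not without it. The value of 4.91 CPM was in combination replicate 3, the library with high female-biased genes. Its log2 difference on top of oxymetholone was 2.49 ± 0.80, or 1.24 ± 0.86 without that library. Wif1 gave 2.31 ± 0.56 for metformin alone and -0.97 ± 0.46 on top of oxymetholone. Without metformin replicate 3 the difference of differences was 5.88 ± 1.44 for Slc22a26 and -3.49 ± 0.75 for Wif1. The other genes of the rule were Paqr8 (-2.06 ± 0.50), Meis1 (-2.12 ± 0.55) and Dntt (2.30 ± 0.60).

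Mitochondrially encoded genes took 2.55, 1.86, 8.19, 1.77 and 1.98% of counts with oxymetholone and 3.28, 3.29 and 1.54% with both drugs. The means of 3.27 ± 2.77% and 2.70 ± 1.01% (SD) differed by less than the spread (exact two-sided permutation test over 56 splits, p = 0.929). Oxymetholone replicate 3 alone set the high mean.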

How the data were processed

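Per the labels' protocols, total liver RNA was isolated on columns and a commercial service prepared standard libraries. Per the submitters' processing notes, reads were placed on GRCm39. Not given in the sources used here are the aligner, counting program, annotation and strand setting. Of 20 labelled samples 18 were used. The authors deposited 1 table of 16115 genes with whole-number counts per library, without normalization, per the file headers. Low genes had already been left out, since the third-highest CPM of every gene was at least 0.401. The authors' deposited log2 fold changes and p-values for the same 2 contrasts were used only where named, by a test that the sources do not name. Another 36 columns of per-sample values were not used.

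Counts were fitted with edgeR 4.0.16 under R 4.3.3 (filterByExpr, which removed 0 genes, TMM scaling, robust quasi-likelihood F test, 1 coefficient per group over all 18 libraries). All groups shared 1 estimate of the spread (common dispersion 0.181, biological coefficient of variation 0.426), and adjustment was by Benjamini-Hochberg over all 16115 genes at 0.05. CPM values were scaled by TMM, log2 CPM used a prior count of 2, and SE came from the same fit. The procedure was tested on simulated data. Libraries of 20.2 to 32.7 M counts set the precision, and no 2 libraries of a group agreed within sampling noise.

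Named genes were the 12 per direction with the smallest p among genes without overlap between groups, a mean log2 CPM of at least 0 and a proper symbol (no predicted genes, clones or pseudogenes), since none was called; up to 4 members by p of each of 46 lists (948 of 1025 entries tested); the 7 genes called earlier for oxymetholone; and 6 for the difference of differences. The members, lists and rules were chosen with earlier results of these data known. Lists of kynurenine, immediate-early and Cyp2c genes, and Hmgcs1, Fos, Tdo2 and Ass1 where a list's 4 did not hold them, were chosen after their values were seen. Values of some genes of this rule are not reported here. Lists are described by counts and medians with no test. Promoter sequences are from RefSeq, GRCm38.p6. Alternatives were DESeq2 1.42.0, its size factors in edgeR, no filter, a mean CPM of at least 1, the compared groups alone, limma-voom (limma 3.58.1) with quality weights, and each library left out. Leaving out metformin replicate 3 from metformin-alone values, leaving it out together with combination replicate 3, and leaving out of a list the genes that prompted it were added after the data were seen.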

Additional observations from a re-analysis of the deposited data

Results flagged for a closer look

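Several oxymetholone libraries lay far from the other 4 of their group, which chance gives in about 1 of 20 groups of values, and 79 sets of values were examined. Serpina1e, a male-biased protease inhibitor with near-identical copies, was at 14474 CPM in oxymetholone replicate 3 and at 39.9 to 67.0 CPM in the other 4, and without that library its log2 difference was -0.36 in place of -6.23. The same library held 8.19% of counts from mitochondrial genes, against 1.77 to 2.55% in the other 4. Cyp2c39 (63.4 CPM against 29.6 to 36.7 CPM) and Cyp2c38 (28.8 CPM against 5.07 to 7.82 CPM) were both high in oxymetholone replicate 5, on the side of the combination libraries. Lipa was at 192 CPM in oxymetholone replicate 2 and at 163 to 169 CPM in the other 4. Mcmdc2 was at 0.037 CPM in oxymetholone replicate 2 and at 0 CPM in the other 4, so that any count at all would have stood apart.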

How the results depend on the processing

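The 0 genes called by edgeR stayed 0 under every edgeR setting and under limma-voom, while DESeq2 called 1 gene for the comparison and 3 for the difference of differences. Genes at an unadjusted p of 0.05 numbered 461, 240 with the compared groups alone and 274 (without oxymetholone replicate 3) to 1014 (without oxymetholone replicate 2) with single libraries left out. For the difference of differences they numbered 483, 1718 by limma-voom, 207 (without metformin replicate 3) to 1364 (without metformin replicate 1) with single libraries left out, and 413 without metformin replicate 3 and combination replicate 3 together. No paired analysis was possible because the labels carry no replicate numbers, and the numbers given in the order of the sample records pair nothing. Limma-voom with quality weights turned the sign of Acta2 (-0.14), Cyp3a16 (-0.72), Oas1g, an interferon-response gene (-0.38), Prom1 (-0.0310) and Slc47a1, a metformin exporter (0.22). With each library left out in turn, the sign turned for Acta2 (-0.75 to 3.16), Cyp3a16 (-2.05 to 5.73), Kif11 (-0.0359 to 1.58), Mcmdc2 (-1.34 to 3.61), Oas1g (-0.58 to 2.09), Prom1 (-0.74 to 4.03), Saa1 (-4.61 to 0.0958), Slc47a1 (-0.28 to 0.24), Sult3a1 (-1.30 to 5.24) and Tspan8 (-0.39 to 4.67), in log2 differences. Saa1 turned without oxymetholone replicate 4, Slc47a1 without any of 3 libraries and the others without combination replicate 3. List medians that moved by more than the spread between libraries were those of B and plasma cells (-0.14 to 0.80), bile duct cells (-0.36 to 1.77), dendritic cells (-0.95 to 0.82), macrophages (-0.77 to 0.43), mesothelial cells (-0.23 to 2.07), muscle (0.068 to 0.73), stellate cells (-0.67 to 1.16), T and NK cells (-1.29 to 1.20), Fanconi pathway (-0.25 to 0.0963), female-biased genes (-0.0544 to 1.87), fetal and tumour genes (-0.52 to 1.21), insulin signalling (-0.30 to -0.0487), integrated stress response (-0.23 to 0.15), interferon response (-0.90 to 0.44), iron genes (-0.21 to -0.0372), periportal genes (-0.70 to -0.15) and proliferation (-1.10 to 0.95). Without metformin replicate 3 the immediate-early median for metformin alone moved from 0.47 to 0.21. The difference in mitochondrial share ranged from -0.94 to 0.66 percentage points. Depth limits the weakest genes: Mcmdc2, at 0 to 0.118 CPM in these 8 libraries, rested on a few counts.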

Other observations

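Some smaller groups were read in the same 8 libraries. Ribosomal protein genes were higher in 37 of 46 with a median log2 difference of 0.18, and in 25 of 46 with a median of 0.00 without combination replicate 3. Clock genes were lower in 16 of 24 with a median of -0.25, and in 13 of 24 with a median of -0.041 without combination replicate 3. Among iron genes, Hjv, which encodes a co-receptor that drives hepcidin, was at 44.2, 66.9, 110, 94.8 and 90.1 CPM with oxymetholone and at 62.1, 35.7 and 39.5 CPM with both drugs (-0.83 ± 0.27, SE). Of the combination libraries only the first lay inside the oxymetholone range. Stat5b, which transmits the growth hormone signal in hepatocytes, was at 25.8 to 37.6 CPM with oxymetholone and at 25.9, 21.7 and 17.7 CPM with both drugs (-0.48 ± 0.20). Its relative Stat5a was at 4.41, 7.05, 8.67, 9.13 and 8.45 CPM against 5.35, 3.93 and 5.06 CPM (-0.66 ± 0.30). In both, 1 oxymetholone library lay below the highest combination library.

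Neutrophil markers were lower in 13 of 16 genes and in 16 of 16 without combination replicate 3, and their sum was 3707 CPM in the highest oxymetholone library, replicate 4, which also held the highest Saa1. Vsig4, a complement receptor of Kupffer cells, was at 15.9, 13.7, 11.1, 28.9 and 23.5 CPM with oxymetholone and at 4.66, 3.98 and 21.9 CPM with both drugs, so combination replicates 1 and 2 lay below all 5 oxymetholone libraries and replicate 3 did not.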
